A study of Saccharomyces cerevisiae with 8 samples.

Results

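The Hsp70 family of *Saccharomyces cerevisiae* was followed here through 10 named genes, *SSA1* to *SSA4*, *SSB1*, *SSB2*, *SSE1*, *SSE2*, *SSC1* and *SSZ1*. A gene was counted as measured where the array annotation lists a probe set for that gene alone, which held for 8 of the 10 genes and for 5656 genes in all. *SSB1* and *SSB2* have only a probe set that lists both of them, so neither was measured singly, and the ribosome-bound branch of the family is represented by *SSZ1* and by that joint probe set. The data were 8 Affymetrix yeast arrays of a strain known from the labels only as 4073, without a genotype, grown in YPD medium to mid-log phase. The 4 control samples (1 to 4) received no gentamicin. The 4 gentamicin samples (5 to 8) came from cells acclimated to the drug and kept in it throughout, at 500 µg/ml per the sample labels, though the series' design text gives this number in milligrams. The labels do not say whether the 4 samples of a group were separate cultures, so p-values measure the spread between these samples, which may be technical.

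Hsp70 proteins are ATP-driven chaperones that bind and release unfolded stretches of other proteins. J-domain proteins set off their ATP hydrolysis, and exchange factors, among them the Hsp110 proteins Sse1 and Sse2, renew the nucleotide. In yeast the Ssa proteins serve the cytosol at large, the Ssb proteins and Ssz1 sit at the ribosome where new chains emerge, and Ssc1 pulls proteins into the mitochondrial matrix and folds them there. Gentamicin is an aminoglycoside, a class of antibiotics that bind ribosomal RNA.

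Each array gave 1 signal per probe set in arbitrary units, scaled by the authors so that the mean without the extreme 2% at each end was near 1001 on every array. Signals of the gentamicin arrays were more spread out, with array medians of 323 to 339.7 against 383 to 400.2 in controls. Over the 4524 genes tested, the median log2 difference between gentamicin and control was -0.12. Among the brightest 10% of tested genes it was 0.12, with 38% called higher, and among the dimmest 10% it was -0.26, with 6.62% called higher. All 8 measured Hsp70 genes were among the brightest 30% of tested genes. The part of signal level in the results below was not tested beyond the alternative scalings given with them. The summed signal of 4 alpha-cell markers was 30998 to 32905 on control arrays and 15251 to 16361 on gentamicin arrays, that of 6 a-cell markers was 1242 to 1437 and 569 to 737, and that of 6 sporulation markers was 882 to 1064 and 1089.5 to 1285.5. Most of the control a-cell sum was *MFA1*, the one a-cell marker bright enough to test, with means of 727 and 164. Its probe set is of a class shared within gene families. *BAR1* read 195 and 126, with all gentamicin arrays below controls, *MFA2* read 183 and 157 with overlap, and *STE6* read 131 and 134. The higher sporulation sum was that of *SPS100*, with means of 199 and 581, while *IME1* read 505 and 418 and *NDT80* 140.4 and 126, and *SPO11*, *SPR3* and *SPS4*, with means of 10.2 to 47.8, were as dim as controls without a target. The a-cell markers *STE2* and *AGA2*, with group means of 26.4 to 47.8, were no brighter than the array controls that have no target in yeast RNA, which reached 89.5. The part of these markers in the Hsp70 results was not tested.

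With gentamicin, the exchange factor genes and 3 of the 4 *SSA* genes rose, whereas *SSA3*, *SSC1* and *SSZ1* did not pass the test. Of the 8 measured Hsp70 genes, 5 were higher and none was lower (limma, Benjamini-Hochberg adjusted p under 0.05 over 4524 genes). Without adjustment, p was under 0.05 for 6 higher genes and 0 lower ones. Among all tested genes 15.5% were called higher and 31.3% lower. The 4 gentamicin values lay above the 4 control values for the 5 called genes, a pattern found for 15.2% of all tested genes. No Hsp70 gene had all gentamicin values below the controls, against 29.6% of all tested genes. These shares of all genes are not those of genes as bright as the Hsp70 genes. The brightest 30% of tested genes, split into classes of 10% from dimmer to brighter, had 21.7%, 30.5% and 38% called higher. In the same order, 23.9%, 19% and 11.9% were called lower. The shares without overlap were not split by brightness. The median log2 difference of the 8 genes was 0.45, and all 8 lay above the median of all tested genes. The medians of the bright classes were higher, at -0.02, 0.06 and 0.12 from dimmer to brighter. *SSZ1*, at -0.11, lay below all of these. In RNA from a whole culture, a change in every cell and a change in the share of cells that express a gene cannot be told apart.

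**Figure D1:**
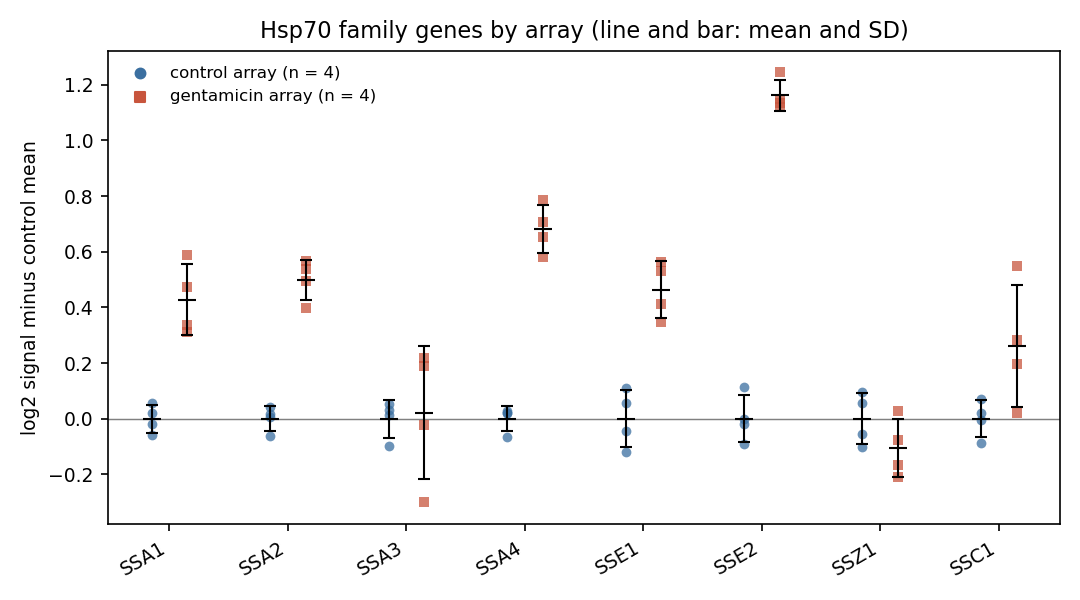
Log2 signal of each measured Hsp70 gene on each array, minus the mean of its 4 control arrays (vertical axis, log2 units). Circles are control arrays and squares gentamicin arrays, with group mean and SD. *SSA1*, *SSA2*, *SSA4*, *SSE1* and *SSE2* have all 4 gentamicin arrays above all controls, while *SSA3*, *SSZ1* and *SSC1* overlap.

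*SSA1* (YAL005C) and *SSA2* (YLL024C) encode the abundant, near-identical cytosolic Hsp70s of growing cells. The *SSA1* probe set read 25599.6, 24882, 26322 and 26954.5 on control arrays 1 to 4 and 36034, 32181, 38932 and 32754 on gentamicin arrays 5 to 8. The lowest gentamicin array was thus above the highest control. Its mean went from 25939.6 ± 896 (SD, n = 4) to 34975 ± 3137, a 1.34-fold rise (log2 difference 0.43 ± 0.07 SE, limma adjusted p = 0.000886). *SSA2* read 16779, 15893, 16663 and 17109 in controls and 23370.5, 21896.5, 24591 and 24090.3 with gentamicin. These groups too were clearly apart, and the rise was 1.41-fold, from 16611 ± 515 to 23487 ± 1173 (SD, n = 4 each, log2 difference 0.50 ± 0.05 SE, limma adjusted p = 9.63e-05). Both rises passed the test under every scaling tried, but their size rested on the scaling. After quantile normalization, which forces all arrays to the same distribution of signals, the log2 differences were 0.24 for *SSA1* and 0.28 for *SSA2*. A probe set keeps a difference under that scaling only by changing rank. Ranks in brightness were 5 to 14 for *SSA1* and 23 to 48 for *SSA2*.

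Because the transcripts of this pair are so alike, 2 further probe sets list both genes. The brighter of these read 31013, 31490.0, 32381.5 and 32908.5 on the control arrays and 38508, 37089.5, 48430.1 and 38084 on the gentamicin arrays. It ranked between 1 and 4 in brightness on every array, and on gentamicin 7 it was the brightest of all 9275 probe sets that are not controls. It rose 1.26-fold in the fit over all these probe sets (limma adjusted p = 0.0189). With quantile normalization its log2 difference went from 0.34 to 0.027 and was not called (adjusted p = 0.812). That scaling gives each rank the same value on every array and leaves almost no room for a difference at ranks 1 to 4. The loss therefore cannot tell whether its RNA rose. The dimmer read 6576, 6851, 6389 and 6875 in controls and 9066, 10288, 9872 and 9164 with gentamicin, a 1.44-fold rise (limma adjusted p = 0.000306). The dimmer joint probe set, the *SSA2* probe set and the *SSA1* probe set gave folds from 1.34 to 1.44. The *SSA1* probe set is by its name of a class that did not meet all of the array maker's design rules. Its specificity for *SSA1* over *SSA2* was not tested, since probe sequences were not used here.

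**Figure D2:**
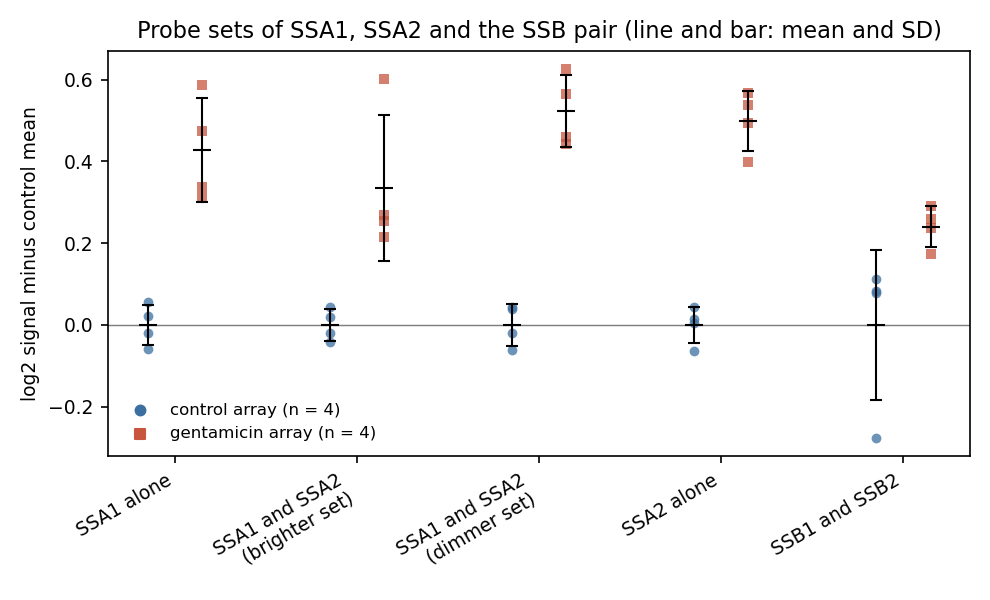
Log2 signal minus the control mean (vertical axis) for the probe sets listed for *SSA1* alone, for *SSA1* and *SSA2* together (2 sets, the brighter first), for *SSA2* alone and for *SSB1* and *SSB2* together. Circles are control arrays, squares gentamicin arrays, with mean and SD of 4 arrays. All 5 sets have gentamicin arrays above controls, and control 1 lies far below the other controls for the *SSB* set.

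*SSA3* (YBL075C) and *SSA4* (YER103W) are known as the stress-induced cytosolic Hsp70 genes, with low expression in unstressed growth. On these arrays both genes were among the brightest 30% of tested genes. The specificity of their probe sets over *SSA1* and *SSA2* was not tested. Of this pair, *SSA4* passed the test and *SSA3* did not. *SSA4* read 2387, 2384, 2399.8 and 2245 in controls and 3704, 3522, 4056 and 3838 with gentamicin. The control arrays spread little and every gentamicin array was far above them, so that the mean rose 1.60-fold, from 2354 ± 72.8 to 3779.8 ± 225 (SD, n = 4 each, log2 difference 0.68 ± 0.06 SE, limma adjusted p = 4.56e-05). *SSA3* read 1792, 1844, 1658 and 1815 in controls and 1749, 1442, 2067 and 2023 with gentamicin. Gentamicin 6 was below all controls for *SSA3*, and gentamicin 7 and 8 were above them. The means were 1777 ± 82.5 and 1820.15 ± 289, a ratio of 1.01 with a 95% confidence interval from 0.850 to 1.21 (limma adjusted p = 0.895). The sign of this small difference turned when control 3 (log2 difference -0.01), gentamicin 7 (-0.045) or gentamicin 8 (-0.03) was left out. The interval leaves out a rise of the size of *SSA4*.

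Set against *SSA3* on the same array, *SSA4* was 0.68, 0.88, 0.57 and 0.52 log2 units above the control mean of this ratio on gentamicin arrays 5 to 8. Control arrays lay between -0.10 and 0.13. The mean change of *SSA4* relative to *SSA3* was 0.66 ± 0.16 log2 units (SD, n = 4), without overlap between the groups. Such a ratio within an array describes an unequal change in the signals of the pair and is free of any error that scales a whole array. It carries no test, does not remove an effect of signal level and does not show that *SSA3* stayed constant.

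The Hsp110 genes *SSE1* (YPL106C) and *SSE2* (YBR169C) both rose, and *SSE2* had the largest fold of the 8 genes. *SSE2* read 2747, 2886, 3167 and 2921 in controls and 6937, 6428, 6492 and 6367 with gentamicin. Every gentamicin array was over 2 times the highest control. The mean rose 2.24-fold, from 2930.4 ± 175 to 6556 ± 259 (SD, n = 4 each, log2 difference 1.16 ± 0.06 SE, limma adjusted p = 3.47e-06). By size of increase *SSE2* ranked 38th among the 4524 tested genes, *SSA4* ranked 204th, and *SSZ1* at the other end of the family ranked 2169th. *SSE1*, which encodes the main Hsp110 of growing cells, read 3246, 3806, 3425 and 3669 in controls and 5215, 5105, 4493 and 4699 with gentamicin. It rose 1.38-fold, from 3537 ± 249.8 to 4878 ± 339 (log2 difference 0.46 ± 0.07 SE, limma adjusted p = 0.000975). Relative to *SSE1* on the same array, *SSE2* gained 0.70 ± 0.08 log2 units (SD, n = 4), with gentamicin arrays at 0.60 to 0.80 and controls at -0.13 to 0.16.

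On the ribosome-bound side, neither *SSZ1* nor the joint *SSB* probe set passed the test. *SSZ1* (YHR064C) encodes an unusual Hsp70 that forms the ribosome-associated complex with the J-domain protein Zuo1 and in this form stimulates Ssb. It read 3006, 2621, 2922 and 2707 in controls and 2866, 2663, 2431 and 2503 with gentamicin, so the groups overlapped. The means were 2814 ± 180.4 and 2615 ± 193, a ratio of 0.929 with a 95% confidence interval from 0.826 to 1.04 (limma adjusted p = 0.274). Its log2 difference was -0.11 as deposited and 0.040 with array medians aligned, so no direction is drawn for *SSZ1*. The joint probe set of *SSB1* (YDL229W) and *SSB2* (YNL209W), the paired genes of the Ssb chaperones, read 7044, 9034, 8996 and 9220.4 in controls and 9613, 10038, 10432 and 10203 with gentamicin. The gentamicin arrays lay above all controls, but control 1 stood far below the other 3, and the 1.18-fold difference was not called (log2 difference 0.24 ± 0.09 SE, limma adjusted p = 0.0756). Without control 1 the log2 difference was 0.15 (adjusted p = 0.0899), after quantile normalization it was 0.10 (adjusted p = 0.531), and with aligned array medians it was 0.39 and was called (adjusted p = 0.00837).

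The contrast between the cytosolic and the ribosome-bound branch was read on each array as a log2 ratio, from which its control mean was taken. Averaged over the 4 *SSA* genes, the ratio to *SSZ1* was 0.37, 0.33, 0.75 and 0.61 on gentamicin arrays 5 to 8, against -0.09 to 0.09 on control arrays. The groups did not overlap, and the mean shift was 0.51 ± 0.20 log2 units (SD, n = 4), or 0.43 after quantile normalization. By gene, the shift against *SSZ1* was 0.53 for *SSA1*, 0.61 for *SSA2* and 0.79 for *SSA4*, each without overlap. For *SSA3* it was 0.13, and the groups overlapped. Against the joint *SSB* probe set the average of the *SSA* genes shifted by 0.17 ± 0.11 (SD, n = 4), and the groups overlapped because control 1 was at 0.28. Without control 1 the shift was 0.26, with gentamicin arrays at 0.11 to 0.34 and the other controls at 0.00 to 0.01. Leaving out each array in turn gave shifts of 0.13 to 0.26. The value without control 1, an array singled out after its signal was seen, was the highest of these. For *SSA4* by itself the shift against the joint *SSB* probe set was 0.44 ± 0.07 (SD, n = 4), with no overlap between the groups on all 8 arrays. These ratios carry no test, since the genes compared were chosen with their changes known.

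The gene for actin, *ACT1*, is read by 3 control probe sets on this array, which rose as well, by 1.28-fold, 1.23-fold and 1.24-fold, with no overlap between groups for any of them. The mean log2 difference over these 3 was 0.32 as deposited, 0.18 after quantile normalization and 0.47 with array medians aligned. The *ACT1* gene probe set rose 1.15-fold (limma adjusted p = 0.0183). Set against the *ACT1* control probe sets on the same array, *SSE2* gained 0.84 ± 0.03 log2 units (SD, n = 4), *SSA4* 0.36 ± 0.10 and *SSA2* 0.18 ± 0.09, each without overlap. *SSA1* at 0.10 ± 0.13 and *SSE1* at 0.14 ± 0.08 overlapped with controls, though *SSE1* no longer did after quantile normalization. The change of *SSZ1* against *ACT1* was -0.43 ± 0.08, with gentamicin arrays below controls as deposited, after quantile normalization, with aligned medians and with an offset. For *SSA3* the change against *ACT1* was -0.30 ± 0.25 without overlap, and -0.14 with overlap after quantile normalization.

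**Figure D3:**
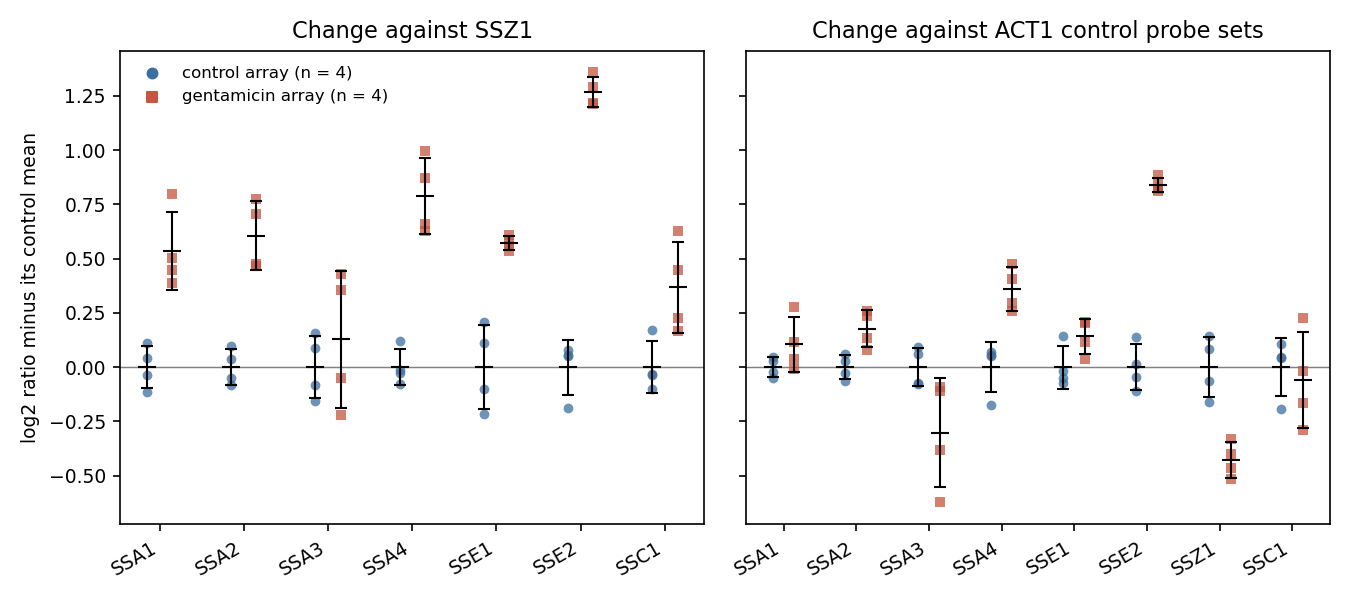
Log2 ratio of each Hsp70 gene to *SSZ1* (left) and to the mean of 3 *ACT1* control probe sets (right) on each array, minus its control mean. Circles are control arrays, squares gentamicin arrays, with mean and SD of 4 arrays. *SSE2* and *SSA4* lie above controls in both panels, *SSA3* shows the widest spread, and *SSZ1* lies below controls against *ACT1*.

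*SSC1* (YJR045C), the essential Hsp70 of the mitochondrial matrix, read 2329.6, 2457, 2372 and 2199 in controls and 2677, 3418, 2369 and 2840.1 with gentamicin. Gentamicin 6 was by far the highest of the 8 arrays, while gentamicin 7 lay inside the range of the controls. The means were 2339 ± 107 and 2826 ± 440.4, a ratio of 1.20 with a 95% confidence interval from 1.02 to 1.41, and the gene was not called (log2 difference 0.26 ± 0.11 SE, limma adjusted p = 0.0682). It was called with aligned array medians (0.41, adjusted p = 0.0137), with array weights (0.24, adjusted p = 0.0421) and without gentamicin 7 (0.34, adjusted p = 0.0204). On gentamicin 6, where *SSC1* was highest, *SSA3* was lowest. The spread of these 2 genes over gentamicin arrays, 15.6% and 15.9% of the mean, was over 3 times their spread over controls, 4.6% for each, and the other 6 measured genes ranged from 3.95% to 8.97% with gentamicin.

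The rest of the Hsp70 system was described through lists of partners. Of 9 tested J-domain and exchange partners of the cytosolic Hsp70s, 3 rose and 0 fell, with a list median of 0.29 against -0.12 for all tested genes, of which 15.5% were called higher and 31.3% lower. The 3 higher genes were all among the brightest 10% of tested genes, where the median was 0.12 and 38% were called higher. Without adjustment, p was under 0.05 for 4 higher and 0 lower genes of the list. *FES1*, an exchange factor for Ssa proteins, rose 1.65-fold from 5680.0 ± 1108 to 9252 ± 701 (limma adjusted p = 0.00203). *SIS1*, an essential J-domain protein that works with Ssa proteins on misfolded substrates, rose 1.65-fold from 6018 ± 1442 to 9690.2 ± 565 (limma adjusted p = 0.00753). *YDJ1*, the abundant J-domain protein of the cytosol, rose 1.33-fold (limma adjusted p = 0.00878). The remaining 4 of the 13 listed partners, *SWA2*, *JJJ1*, *JJJ2* and *JJJ3*, were too dim for the test. Each had all gentamicin arrays below the controls. The share of 29.6% for this pattern is that of tested genes, which are brighter than these 4, and was not counted for dimmer genes. Among the dimmest 10% of tested genes 41.1% were called lower. With no gene left out as dim, *JJJ1* (log2 difference -0.49, limma adjusted p = 0.0275) and *JJJ3* (-0.86, adjusted p = 0.0012) were called lower. Gentamicin means of *JJJ1*, *JJJ2* and *JJJ3* (74.1, 55.7 and 83.0) were no brighter than array controls without a target. After quantile normalization 5 of this list were called higher, and with aligned medians 6.

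Of 12 tested genes for Hsp90, Hsp104, small heat shock proteins and factors that link Hsp70 to Hsp90, 7 rose and 1 fell, with a median of 0.38, where 15.5% of all tested genes were called higher and 31.3% lower. Most of the 7 higher genes were among the brightest 10% of tested genes, where 38% were called higher and 11.9% lower. *HSP104*, the disaggregase that works with Hsp70, rose 1.69-fold from 2171 ± 122 to 3674 ± 378 (limma adjusted p = 0.000133). *HSP82*, the heat-inducible Hsp90 gene, rose 1.60-fold (limma adjusted p = 0.00026), and *CPR6*, a co-chaperone of Hsp90, rose 1.44-fold (limma adjusted p = 0.000277). The *HSP82* probe set is by its name not of the plain class, and its specificity over *HSC82*, the other Hsp90 gene, was not tested. *HSC82* rose 1.19-fold (limma adjusted p = 0.00715), a call lost after quantile normalization (adjusted p = 0.167). *CNS1*, an essential co-chaperone that binds both Hsp70 and Hsp90, went the other way and fell 1.87-fold from 388 ± 61.1 to 206 ± 11.4 (limma adjusted p = 0.000313).

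**Figure D4:**
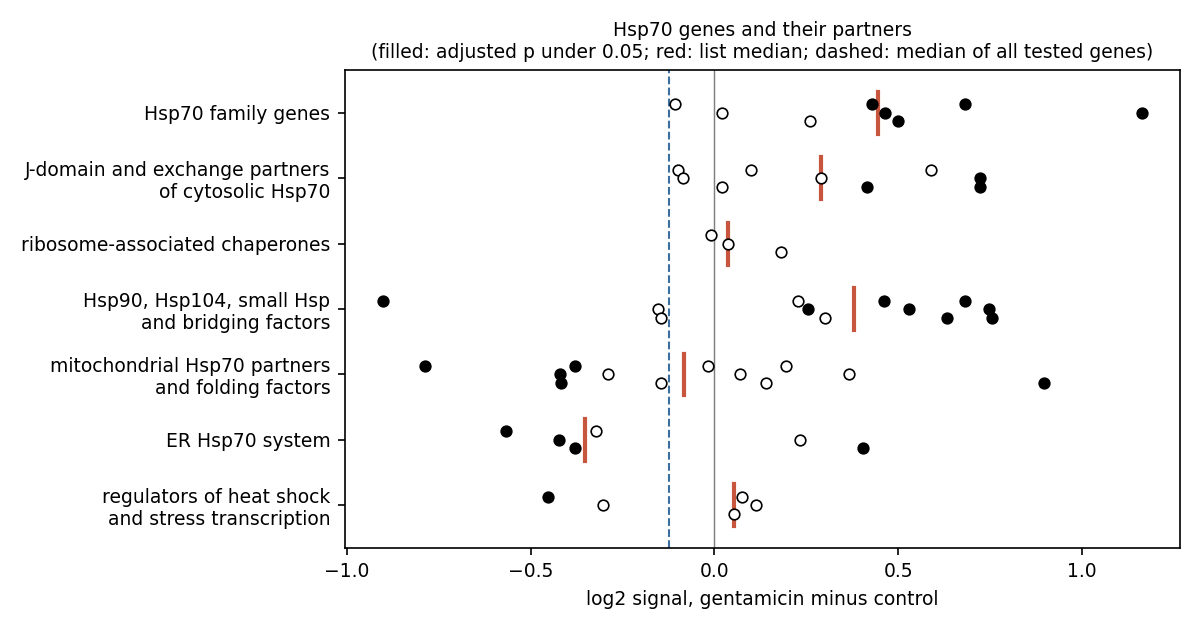
Log2 difference between gentamicin and control (horizontal axis) for each tested gene of the Hsp70 family and of 6 partner lists. Each circle is a gene, filled where the limma adjusted p was under 0.05. Short red lines are list medians, and the dashed line is the median of all tested genes at -0.12. The ER list has the lowest median, -0.35, and the Hsp70 genes the highest, 0.45.

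Ribosome-associated chaperones other than *SSZ1* had 0 called genes of 3 tested in either direction (limma), and 0 with unadjusted p under 0.05, at a median of 0.04, beside the same 15.5% and 31.3%. All 3 were among the brightest 10% of tested genes, where 38% were called higher and 11.9% lower. *ZUO1*, the partner of *SSZ1*, read 6427 ± 417 and 6374 ± 301, a log2 difference of -0.01 (limma adjusted p = 0.909). *EGD1* and *EGD2*, subunits of the nascent polypeptide-associated complex, had log2 differences of 0.04 and 0.18, and for *EGD2* all gentamicin arrays lay above the controls. The remaining listed gene, *BTT1*, was too dim for the test. It read 230 and 174, with all gentamicin arrays below controls. With no gene left out as dim, *BTT1* was called lower (log2 difference -0.41, limma adjusted p = 0.0429). With aligned medians 2 of the 3, *EGD1* and *EGD2*, were called higher.

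Partners and folding factors of the mitochondrial matrix went both ways, with 1 of 12 tested genes higher and 4 lower, at a median of -0.08. With 15.5% of all tested genes higher and 31.3% lower, the share of lower calls was near that of all genes, and the counts say nothing particular about this list. *HSP78*, the matrix disaggregase that reactivates proteins with Ssc1, rose 1.86-fold from 1717 ± 143 to 3213 ± 428 (limma adjusted p = 0.000165). *JAC1*, a J-domain protein of iron-sulphur cluster synthesis, fell 1.34-fold from 819 ± 14.9 to 613 ± 31.6 (limma adjusted p = 0.000938). *PAM18*, the J-domain protein of the import motor, fell 1.30-fold (limma adjusted p = 0.00801). *ECM10*, a matrix Hsp70 closely related to *SSC1*, fell 1.72-fold from 355 ± 67.9 to 205 ± 38.7 (limma adjusted p = 0.00549). The third matrix Hsp70, *SSQ1*, read 80.6 ± 8.69 and 70.4 ± 8.66, no brighter than array controls without a target, and was below the filter of the test. *MDJ1*, the J-domain partner of Ssc1 in folding, was not called (log2 difference 0.37, limma adjusted p = 0.0514). It was called higher after quantile normalization (0.42, adjusted p = 0.0324), with aligned medians (0.51, adjusted p = 0.0159), with array weights (0.38, adjusted p = 0.0153), without control 4 (0.44, adjusted p = 0.0385) and without gentamicin 6 (0.49, adjusted p = 0.00598). Only 2 of the list were called lower after quantile normalization or with aligned medians, where *PAM18* was not called (adjusted p = 0.0518 and 0.0577). *PAM16*, the other gene called lower (log2 difference -0.42, limma adjusted p = 0.0295), had overlapping groups. Its call was lost under both scalings (adjusted p = 0.296 and 0.124). It was also lost without control 2, 3 or 4 and without gentamicin 5, 7 or 8.

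In the endoplasmic reticulum (ER), *KAR2*, the main Hsp70 of that compartment, rose 1.32-fold from 7762 ± 774 to 10262 ± 813 (limma adjusted p = 0.0052), while 3 of the 6 tested list members fell and 1, *KAR2* itself, rose. Over all tested genes 31.3% were called lower and 15.5% higher, so counts this small are not set apart from the rest. *SEC63*, a J-domain protein of the translocation channel, fell 1.48-fold (limma adjusted p = 0.00543). *SIL1*, an exchange factor for Kar2, fell 1.34-fold (limma adjusted p = 0.00883), and *SCJ1*, a J-domain protein of the ER lumen, fell 1.30-fold (limma adjusted p = 0.0122). The list median was -0.35. After quantile normalization the calls of *SEC63* and *SIL1* were lost (adjusted p = 0.0584 and 0.211), with aligned medians those of *SIL1* and *SCJ1* (adjusted p = 0.0632 and 0.083), and *LHS1*, a further exchange factor for Kar2, was called higher under both scalings and without control 4 (log2 difference 0.31, adjusted p = 0.0348).

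Among 5 regulators of heat shock and stress transcription 0 rose and 1 fell (limma), with 0 higher and 1 lower at unadjusted p under 0.05, beside 15.5% higher and 31.3% lower among all tested genes. *HSF1*, the heat shock factor that drives *SSA* genes, read 1414 ± 35.0 and 1542 ± 231, a log2 difference of 0.11 (limma adjusted p = 0.422), and was called only without gentamicin 6 (0.22, adjusted p = 0.0259). *YAP1*, a factor of the oxidative stress response, fell 1.37-fold (limma adjusted p = 0.00225), a call that was lost after quantile normalization (adjusted p = 0.0562). *MSN2*, a general stress factor, had a log2 difference of -0.30 (limma adjusted p = 0.163) and was called lower without control 1 (-0.44, adjusted p = 0.0373) and with array weights (-0.32, adjusted p = 0.0377).

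The tested genes outside the family whose log2 signal over the 8 arrays, centred on each gene's mean, lay nearest to that of *SSA4* were *ARO1*, *TSA2* and *PFK1*, at root-mean-square distances of 0.049, 0.058 and 0.067 log2 units. *ARO1* encodes an enzyme of aromatic amino acid synthesis, *TSA2* a peroxiredoxin and *PFK1* a subunit of phosphofructokinase, and their folds were 1.60, 1.69 and 1.49. For *SSE2*, added after its values were seen, the nearest were *PHM8*, a phosphatase, *GPD2*, a glycerol-3-phosphate dehydrogenase, and *GSC2*, a glucan synthase subunit, at distances of 0.063, 0.074 and 0.082 and with folds of 2.08, 2.24 and 2.28. None of these 6 is on the partner lists given above.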

How the data were processed

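RNA of 8 yeast samples was hybridised in 1 colour, 1 array per sample. The deposited values are linear intensities that the authors made with MAS5 (version not given), according to the submitters' processing notes. Of 9335 probe sets, 60 were controls, and genes were named by the platform annotation, brought up to date with the R64 gene table (all 6504 probe sets with 1 gene matched, 328 listed several genes). No build is named, so no coordinates are given, and no sequences were used here. For 315 genes with several probe sets the brightest by mean log2 signal stood for the gene. Each measured Hsp70 gene had 1. The dimmest 20% of genes by mean were not tested. Log2 intensities, with no offset, were fitted with limma 3.58.1 in R 4.3.3 (lmFit, eBayes with a variance trend), with the group as the sole term since no batch is given. The code was tested on simulated data. Probe sets listing 2 genes were fitted with all 9275 probe sets that are not controls, unfiltered.

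The 10 genes and the partner lists were chosen with earlier results of these data known, so lists get counts and medians but no test. Named besides the family were up to 3 called genes per list and direction by smallest adjusted p, nearest profiles of *SSA4* (3 genes), *ACT1*, and other list members where a call changed, chosen after their values were seen. The rule's nearest profiles of *SSB1* or *SSB2* could not be had, as neither was measured alone. Intervals are 95% and not adjusted. The number of arrays limits the precision.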

Additional observations from a re-analysis of the deposited data

Results flagged for a closer look

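Of 22 groups of 4 arrays checked over the 11 probe sets of the family, 3 held an array whose gap to the nearest other array, divided by the range of the group, exceeded Dixon's critical value. Chance marks about 1 in 20 groups. Control 1 was far below the other controls for the joint *SSB* probe set (7044, ratio 0.909), control 4 was below the others for *SSA4* (2245, ratio 0.899), and gentamicin 7 was above the others for the joint *SSA1* and *SSA2* probe set, the brighter of 2 (48430.1, ratio 0.859). Without control 4 and without each other array in turn, *SSA4* stayed called, with log2 differences of 0.65 to 0.72.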

How the results depend on the processing

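The alternatives were quantile normalization, aligned medians over tested genes, an offset of the 5% point of signals, no filter, the lowest 40% left out, array weights, no variance trend, a median over probe sets, plain probe sets alone (which leaves out *SSA1*), an adjusted p under 0.01 and each array left out. Leaving out arrays for probe sets of 2 genes was added after the data were seen. *SSA1* (where measured), *SSA2*, *SSA4*, *SSE1* and *SSE2* stayed higher and called under all of these. Members called higher numbered 5 to 6 and called lower 0 on leaving out arrays. No paired analysis was possible because the groups share no replicate numbers. The causes of the changes below were not tested.

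Genes called in the whole table were 702 higher and 1414 lower. Lower calls were 894 after quantile normalization, which left 850 higher, and 915 at an adjusted p under 0.01, while aligned medians gave 1079 higher and 799 lower. *SSC1* was called with aligned medians (0.41), also in the fit over all probe sets (adjusted p = 0.0197), with array weights (0.24), and without gentamicin 7, with a range of 0.17 to 0.34 on leaving out arrays. *SSZ1* turned to 0.040 with aligned medians, in both fits. *SSA3* ranged from -0.045 (without gentamicin 7) to 0.13 on leaving out arrays, with -0.01 without control 3 and -0.03 without gentamicin 8. The joint *SSB* probe set was called with aligned medians (0.39), and the brighter joint *SSA1* and *SSA2* probe set was not called after quantile normalization (0.027).

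Partner counts moved too. Aligned medians gave 6 higher J-domain and exchange partners, 2 higher ribosome-associated chaperones, 3 higher and 2 lower mitochondrial partners, and 2 higher and 1 lower ER genes. Quantile normalization gave 5 higher J-domain and exchange partners, 2 higher and 2 lower mitochondrial partners, 2 higher and 1 lower ER genes and 0 lower regulators. Leaving out the lowest 40% gave 0 lower genes in the Hsp90 list, 2 lower mitochondrial partners, 1 lower ER gene and 0 lower regulators, since fewer genes were tested. No filter gave 2 lower genes in the Hsp90 list, 2 lower J-domain partners and 1 lower ribosome-associated chaperone. Array weights gave 2 higher mitochondrial partners and 2 lower regulators. On leaving out arrays, higher counts ranged from 1 to 2 for ER genes and mitochondrial partners and from 0 to 1 for regulators. Lower counts then ranged from 1 to 2 for regulators and from 3 to 4 for mitochondrial partners.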
